A study of Homo sapiens with 12 samples.

Results

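Transcripts of 10 genes that sense broken DNA or rejoin its ends were followed in HT1080 cells, an established human fibrosarcoma line, on 12 Illumina BeadArrays. The genes were the kinases ATM, ATR, PRKDC, CHEK1 and CHEK2, the break-binding factors NBN and MRE11 (written MRE11A in the probe table), and the end-joining factors XRCC5, XRCC6 and LIG4. They were taken by name out of 24946 gene symbols on the array. They were covered by 28 of 48797 probes. The 4 groups held 3 arrays each, numbered 1 to 3. The first 2 groups carried ING2-6K (ING2_6K in the labels), a mutant of the chromatin protein ING2 altered in basic residues so that it no longer binds the nuclear lipid PtdIns(5)P, and received 100 uM etoposide or its solvent DMSO for 16 h. The other 2 groups carried wild-type ING2 (ING2-WT) and received the same 2 treatments for the same time. A different time is given for the arrays in the study's own text. According to the study, all groups stably expressed an epitope-tagged ING2 and had little of their own ING2 left. Neither the promoter of the transgene nor whether a line was 1 clone is in the labels. Nor do they state that same-group arrays were separate cultures, although a figure legend of the study calls its replicates biological. If they were not separate, the p-values reflect array-to-array spread that could be technical alone.

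Etoposide traps topoisomerase II on DNA and leaves double-strand breaks. At such a break the MRE11-RAD50-NBN complex holds the ends and recruits ATM, which phosphorylates CHEK2, while single-stranded DNA calls ATR, which phosphorylates CHEK1. Both checkpoint kinases restrain cell division. In the competing route of non-homologous end joining, the ring formed by XRCC5 (Ku80) and XRCC6 (Ku70) slides onto the end and binds the kinase encoded by PRKDC (DNA-PKcs), and LIG4 seals the gap. These proteins are mostly controlled after translation, and the arrays measured their transcripts only.

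Checks of the labels came first, because they touch every value that follows. CDKN1A encodes the p53-induced inhibitor p21 and is a standard readout of DNA damage. It stood at 3069 to 5896 on the arrays labelled ING2-6K etoposide, at 11500 to 16290 on those labelled ING2-6K DMSO, at 14620 to 16640 on ING2-WT etoposide and at 2964 to 4277 on ING2-WT DMSO. TOP2A, the enzyme that etoposide traps and a gene of dividing cells, ran the other way, with 1937 to 3319 on arrays labelled ING2-6K etoposide, 67.1 to 127 on ING2-6K DMSO, 75.7 to 197 on ING2-WT etoposide and 2035 to 3149 on ING2-WT DMSO. On these genes the arrays labelled ING2-6K DMSO therefore stood beside ING2-WT etoposide, and the arrays labelled ING2-6K etoposide beside ING2-WT DMSO. A probe for ING2 read 21060 and 20290 on arrays 1 and 2 labelled ING2-6K etoposide and at most 454.6 on the other 10 arrays, which were array 3 of that group (119), all those labelled ING2-6K DMSO and all 6 labelled ING2-WT. An ING2 signal of that size was thus seen on 2 of the 12 arrays. Whether these probes lie within the transgene is not given in the sources used here. Groups are named as labelled throughout, and every direction below rests on those labels. The arrays numbered 3 also stood apart. Arrays 1 and 2 of a group correlated at 0.969 to 0.98 over probes. Either of them with array 3 gave 0.771 and 0.772 in ING2-WT etoposide and 0.873 to 0.948 in the other groups. Results are therefore given with and without the arrays numbered 3. The mesenchymal markers VIM, SPARC and CD44 were bright on all arrays and FN1 reached 73.6 to 819, while THY1 stayed under the intensity minimum. Of the epithelial markers, EPCAM reached at most 127.6 and CDH1 147.3, and both passed the intensity minimum. KRT19, KRT14 and ESRP1 did not pass, and no blood marker did.

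Intensities are quantile-normalised, which gives every array the same distribution, and are comparable between arrays for 1 probe but not between probes. A probe was tested if it reached 64 on at least 3 arrays, and each gene was represented by its brightest such probe. A change was called when its adjusted p from limma, a linear model fitted across all 11443 genes tested, was under 0.05. By that rule 9 of the 10 genes were tested, through 18 of their 28 probes. ATR, the kinase of single-stranded DNA and stalled forks, was not. Its 4 probes never exceeded 59.3, 64.1, 49.4 and 39.8, and only 1 value of 1 probe reached the minimum. ATR transcript was thus not measurable on these arrays, and nothing follows about its level.

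In cells carrying ING2-WT, etoposide went with lower XRCC5, the Ku80 subunit of end joining. XRCC5 fell to 182 ± 67.1 on ING2-WT etoposide arrays, against 629 ± 142 on ING2-WT DMSO arrays (SD, n = 3 each), a log2 change of -1.85 (SE 0.41, adjusted p = 0.0251, limma). It was the 1 gene called of the 9, where 2.95% of all genes tested were called lower and 1.93% higher (4.89% in either direction). The other 8 did not pass, although 8 of the 9 changes lay below 0, with a median of -0.72, and the median over all genes was -0.0027. The intensities of PRKDC, CHEK1, MRE11 and XRCC5 were lower on all 3 etoposide arrays than on any DMSO array, in 4 of 9 genes where 10.3% of all genes separated that way. Without the arrays numbered 3, limma called 6 of the 9 lower (ATM, PRKDC, CHEK1, NBN, XRCC5 and XRCC6) and 16.5% of all genes lower and 14.7% higher. With the array number as a block, ATM, PRKDC, CHEK1 and XRCC5 were called lower (adjusted p = 0.0349, 0.0180, 0.0394 and 0.0272), beside 5.38% of all genes. The pairing check behind that block does not show that arrays 1 and 2 were paired by number. In ING2-WT their r was 0.244 and 0.293 for the same number and up to 0.258 for another. The XRCC5 call was lost when any of the 3 ING2-WT DMSO arrays was left out (adjusted p = 0.0745, 0.0684 and 0.0722 without array 1, 2 or 3), and it held when any of the other 9 arrays was.

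In cells labelled ING2-6K, none of the 9 was called with etoposide by limma, where 1.48% of all genes were called higher and 0.149% lower (1.63% in either direction). At an unadjusted p under 0.05 there were 2, CHEK1 and MRE11, both with positive changes, beside 9.49% of all genes in either direction. PRKDC, CHEK1, MRE11 and XRCC6 had higher intensities on all 3 etoposide arrays than on any DMSO array, 4 of 9 genes where 9.55% of all genes separated that way. The median change of the 9 was 0.40, against -0.03 for all genes. With those numbered 3 left out, ATM, PRKDC and MRE11 were called higher and XRCC5 lower (adjusted p = 0.0410, 0.00449, 0.0239 and 0.0461), where 18.8% of all genes were called higher and 19.5% lower.

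The etoposide change itself differed between the lines for CHEK1 and MRE11. The difference of changes, ING2-6K minus ING2-WT, was 1.82 for CHEK1 (SE 0.44, adjusted p = 0.0303) and 1.50 for MRE11 (SE 0.39, adjusted p = 0.0416) on the log2 scale. These were 2 of 9 genes called higher, beside 3.85% of all genes (6.49% in either direction). PRKDC by its brightest probe (2.40, SE 0.74, adjusted p = 0.0800) and XRCC5 (1.83, SE 0.58, adjusted p = 0.0870) had differences as large that did not pass. The dimmer PRKDC probes are given below. LIG4 was the 1 gene with a value below 0 (-0.86, SE 0.45, adjusted p = 0.298). Without the arrays numbered 3, ATM, PRKDC, CHEK1, CHEK2, MRE11 and XRCC6 were called higher, 6 of 9, beside 18.4% of all genes called higher and 19.8% lower. Both calls of the fit on all arrays were fragile to single arrays. The CHEK1 call held without ING2-WT etoposide array 1 or 3 or ING2-WT DMSO array 3 and was lost without any of the other 9, where the adjusted p ran up to 0.0829. The MRE11 call held without ING2-WT etoposide array 3 or ING2-6K DMSO array 3 and was lost without any of the other 10, up to an adjusted p of 0.111. The changes themselves stayed between 1.63 and 2.12 for CHEK1 and between 1.31 and 1.61 for MRE11 over all 12 omissions.

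**Figure D1:**
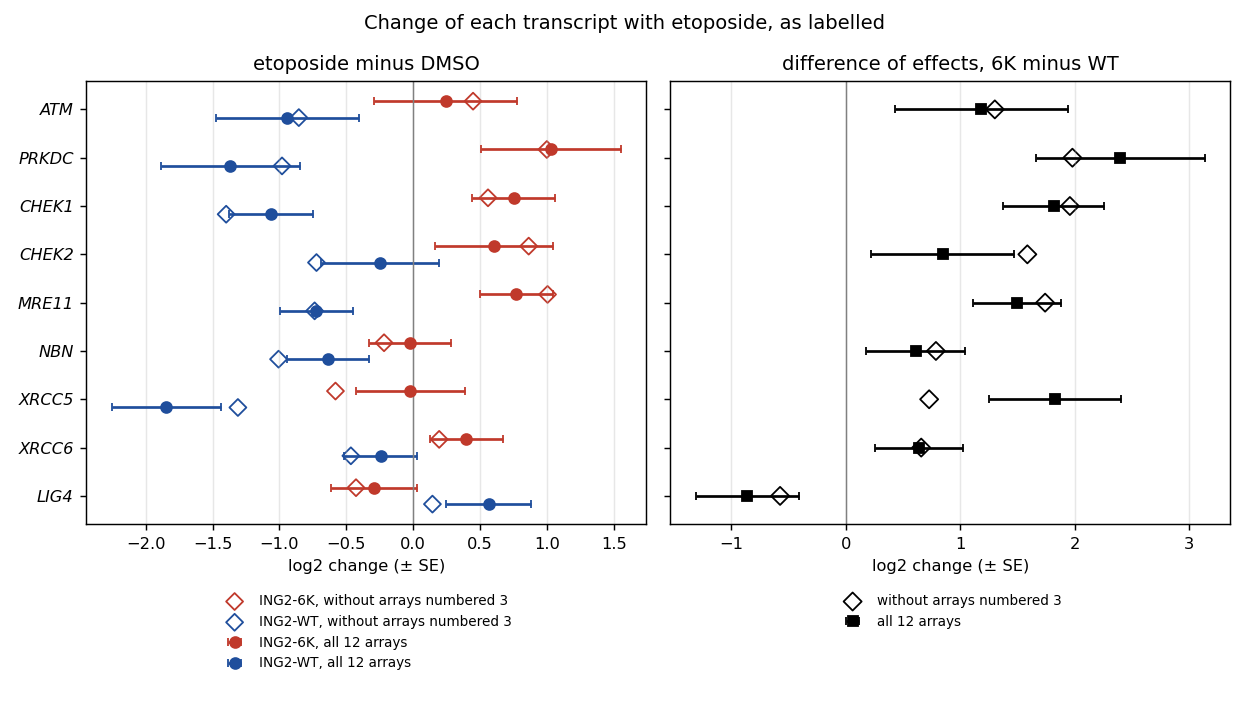
Left, log2 change with etoposide for each gene tested on arrays labelled ING2-6K (red) and ING2-WT (blue). Right, the difference of the 2 changes. Filled symbols with bars are the fit on all 12 arrays ± SE, and open diamonds the fit without the arrays numbered 3. XRCC5 lies furthest left in ING2-WT, at -1.85, and LIG4 alone has a difference below 0.

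Between the lines, the DMSO arrays gave no call among the 9 by limma (2 at an unadjusted p under 0.05, CHEK1 and MRE11, beside 11% of all genes; 2.48% of all genes were called). CHEK1 came closest, at 255 ± 42.3 on ING2-6K DMSO arrays and 660 ± 213 on ING2-WT DMSO arrays (SD, n = 3 each), a log2 difference of -1.33 (SE 0.31, adjusted p = 0.0501). It passed with the array number as a block (adjusted p = 0.0287), which called 3.31% of all genes lower. The pairing check behind that block does not show that arrays 1 and 2 were paired by number. In DMSO their r was 0.491 and 0.376 for the same number and up to 0.511 for another. CHEK1, MRE11 and XRCC6 lay lower on every ING2-6K DMSO array than on any ING2-WT DMSO array, 3 of 9 where 9.4% of all genes did. Without the arrays numbered 3, ATM was called higher and CHEK1 and MRE11 lower (adjusted p = 0.0421, 0.00394 and 0.0324), beside 13.2% of all genes called higher and 13.1% lower. On the etoposide arrays, PRKDC and XRCC5 were called higher in ING2-6K, by 2.06 (SE 0.52, adjusted p = 0.0439) and 1.66 (SE 0.41, adjusted p = 0.0388) on the log2 scale, 2 of 9 beside 3.14% of all genes (5.51% in either direction). ATM, PRKDC, CHEK1, MRE11 and XRCC5 were higher on every ING2-6K etoposide array than on any ING2-WT etoposide array, 5 of 9 where 14.2% of all genes were. ATM, PRKDC, XRCC5 and XRCC6 were called higher without the arrays numbered 3, beside 20.5% of all genes. The PRKDC call held without ING2-WT etoposide array 3, ING2-WT DMSO array 2 or 3 or ING2-6K DMSO array 3 and was lost without any of the other 8 arrays, up to an adjusted p of 0.160. The XRCC5 call held without ING2-WT DMSO array 3 or ING2-6K DMSO array 2 or 3 and was lost without any of the other 9, up to 0.145.

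The break-responsive kinases ATM and PRKDC shared an array pattern. ATM, which phosphorylates many damage substrates, read 792, 783 and 1231 on ING2-6K etoposide arrays 1 to 3, 612, 545 and 1377 on ING2-6K DMSO, 242, 214 and 562 on ING2-WT etoposide and 424, 400 and 1216 on ING2-WT DMSO. Array 3 was the brightest in each group, and ING2-WT etoposide was the dimmest group at every array number. The ATM change was 0.24 in ING2-6K and -0.94 in ING2-WT (SE 0.54 each), neither past the test on all arrays. On arrays 1 and 2 alone, the SE was 0.14 and the ATM changes were 0.45 in ING2-6K (adjusted p = 0.0410) and -0.86 in ING2-WT (adjusted p = 0.00612). A second ATM probe read 637, 620 and 983 on ING2-6K etoposide arrays, 458, 497 and 862 on ING2-6K DMSO, 207, 204 and 764 on ING2-WT etoposide and 332, 316 and 945 on ING2-WT DMSO, with the same dim pair on ING2-WT etoposide arrays 1 and 2. The other 2 ATM probes did not pass 24.3 on any array.

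PRKDC, the catalytic subunit that caps Ku-bound ends, read 2511, 2387 and 4771 on ING2-6K etoposide arrays, 1113, 1358 and 2208 on ING2-6K DMSO, 642, 599 and 1020 on ING2-WT etoposide and 1249, 1193 and 4519 on ING2-WT DMSO. At every array number ING2-WT etoposide was the dimmest group and ING2-6K etoposide the brightest. PRKDC averaged 3223 ± 1342 on ING2-6K etoposide arrays and 754 ± 232 on ING2-WT etoposide arrays (SD, n = 3 each). The change with etoposide was 1.03 in ING2-6K (adjusted p = 0.589) and -1.37 in ING2-WT (adjusted p = 0.176; SE 0.52 each).

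All 4 PRKDC probes passed. The second probe read 711, 561 and 940.2 on ING2-6K etoposide arrays, 389, 328 and 595 on ING2-6K DMSO, 112, 159 and 17.4 on ING2-WT etoposide and 412, 379 and 977 on ING2-WT DMSO. The third read 144, 108 and 460 on ING2-6K etoposide arrays, 127, 90.1 and 108 on ING2-6K DMSO, 23.1, 24.5 and 31.2 on ING2-WT etoposide and 144, 112 and 314 on ING2-WT DMSO. On ING2-WT etoposide arrays the third probe and the dimmest were under the minimum throughout, so that only a bound can be given. The dimmest read 26.5 on array 2 and below 0 on arrays 1 and 3, so its fitted size also depends on the floor of 16. Taking the minimum of 64 there, the third probe was at least 3.01-fold higher on ING2-6K etoposide arrays and at least 2.68-fold higher on ING2-WT DMSO arrays than on ING2-WT etoposide arrays, and the dimmest at least 2.44-fold and at least 2.01-fold. Tested probe by probe over 14824 probes, the 3 dimmer PRKDC probes were called lower with etoposide in ING2-WT (adjusted p = 0.0368, 0.0143 and 0.0220) and the brightest was not (adjusted p = 0.188), where 2.98% of probes were called lower. The third and the dimmest passed the filter only through the other groups, so their calls here and below add no independent support. The second was itself under the minimum, at 17.4, on ING2-WT etoposide array 3. All 4 PRKDC probes were called higher in ING2-6K than in ING2-WT under etoposide (adjusted p = 0.0481, 0.0226, 0.0130 and 0.0157), where 3.04% of probes were. In the difference of changes, the third and the dimmest were called higher (3.56 and 3.79, adjusted p = 0.0154 and 0.0191), where 3.61% of probes were. The brightest (2.40, adjusted p = 0.090) and the second (3.75, adjusted p = 0.052) were not.

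**Figure D2:**
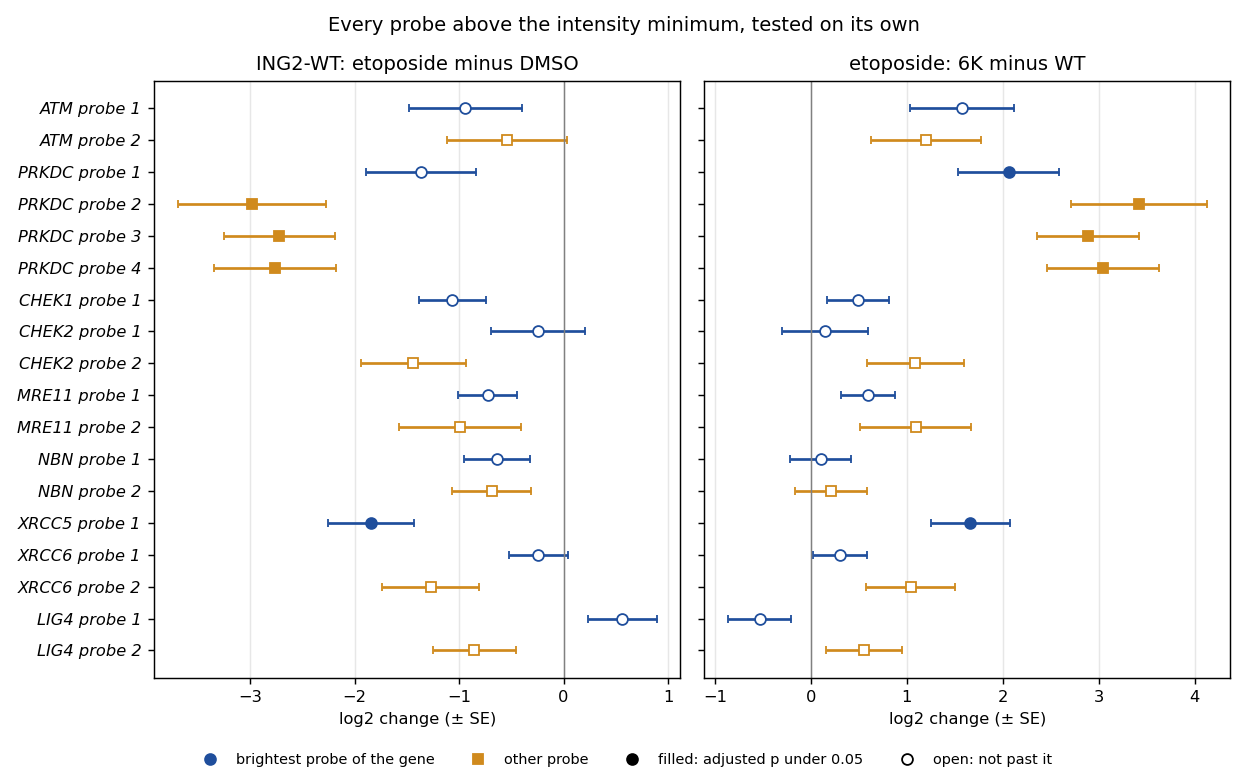
Each of the 18 probes above the intensity minimum, fitted on its own, with probes of a gene numbered from the brightest. Left, log2 change with etoposide on ING2-WT arrays; right, log2 difference between ING2-6K and ING2-WT under etoposide; bars are SE and filled symbols have an adjusted p under 0.05. The 4 PRKDC probes lie furthest right in the right panel. Of these, 2 were under the minimum on all ING2-WT etoposide arrays, and the position of the dimmest depends on the floor. The 2 LIG4 probes lie on opposite sides of 0 in both panels.

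The checkpoint kinases followed. CHEK1, the ATR substrate that holds cells before mitosis, was measured by 1 probe. It read 458, 370 and 457 on ING2-6K etoposide arrays, 275.5, 284 and 207 on ING2-6K DMSO, 351, 248 and 320 on ING2-WT etoposide and 822, 738 and 418.5 on ING2-WT DMSO. With etoposide the ING2-6K arrays were all higher than their DMSO arrays and the ING2-WT arrays all lower. The CHEK1 change was 0.75 in ING2-6K (adjusted p = 0.452) and -1.06 in ING2-WT (adjusted p = 0.0817; SE 0.31 each), so that only the difference between them passed. ING2-WT DMSO array 3 was the lowest of its group, and without the arrays numbered 3 the ING2-WT change was -1.40 (SE 0.20, adjusted p = 0.00458). CHEK2, the ATM substrate that phosphorylates p53, read 132, 149.6 and 167 on ING2-6K etoposide arrays, 73.3, 84.2 and 153 on ING2-6K DMSO, 68.6, 141 and 253 on ING2-WT etoposide and 183, 141 and 157.5 on ING2-WT DMSO. Its groups overlapped in all 4 pairwise comparisons, with ING2-WT etoposide arrays spanning the whole range. No CHEK2 change passed on all arrays, and without the arrays numbered 3 its difference of changes was 1.59 (SE 0.48, adjusted p = 0.0405). A second CHEK2 probe read 28.5 to 81.4 on ING2-WT etoposide arrays and 112.5 to 185 on ING2-WT DMSO arrays, a log2 change of -1.44 (SE 0.50) that did not pass (adjusted p = 0.144). The 2 probes parted on ING2-WT etoposide array 3, where the second had its lowest value, 28.5, and the first its highest, 253.

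MRE11 and NBN, partners in the complex that first meets the break, were measured by 2 probes each that passed. MRE11, its nuclease, read 119.8, 168 and 119 on ING2-6K etoposide arrays, 87.9, 59.0 and 92.7 on ING2-6K DMSO, 83.4, 88.6 and 93.9 on ING2-WT etoposide and 127, 158 and 156 on ING2-WT DMSO. As for CHEK1, the 2 treatments did not overlap in either line, on opposite sides. The MRE11 change was 0.77 in ING2-6K (adjusted p = 0.326) and -0.72 in ING2-WT (adjusted p = 0.170; SE 0.27 each). A second MRE11 probe gave overlapping groups in both lines, with a difference of changes of 1.20 (SE 0.82, adjusted p = 0.456), and in that probe-by-probe fit the brighter probe narrowly missed the threshold as well (1.50, adjusted p = 0.0519). NBN, which carries the complex into the nucleus and binds ATM, read 385, 253 and 373.5 on ING2-6K etoposide arrays, 408, 322 and 289 on ING2-6K DMSO, 289, 279.5 and 365 on ING2-WT etoposide and 564, 577 and 339.5 on ING2-WT DMSO. Only ING2-WT DMSO arrays 1 and 2 stood above the rest. Without the arrays numbered 3, NBN was called lower with etoposide in ING2-WT, by -1.01 (SE 0.23, adjusted p = 0.0179), and on all arrays it was not (-0.64, SE 0.31, adjusted p = 0.286). RAD50, the ATPase that completes the complex and is named here after its value was seen, had a difference of changes of -1.11 (SE 0.42, adjusted p = 0.150).

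CHEK1 and MRE11, the 2 genes called in the difference of changes, were the reason to look at promoter sequence. RefSeq windows of 250 bases upstream of annotated starts (GRCh38.p14) were at hand and usable for 7 of the 10 genes, in 14 windows of which some overlap. The pentamer CCAAT, the word bound by NF-Y and frequent in promoters of cell-cycle genes, was searched on both strands. It is in capitals below, written ATTGG where it lies on the opposite strand. The CHEK1 window is the first of 3, chr11:125625979-125626228 on the plus strand, with the word 105 bases before the start, and the MRE11 window is chr11:94493845-94494094 on the minus strand, with the word at 127 and 62 bases before the start.
CHEK1: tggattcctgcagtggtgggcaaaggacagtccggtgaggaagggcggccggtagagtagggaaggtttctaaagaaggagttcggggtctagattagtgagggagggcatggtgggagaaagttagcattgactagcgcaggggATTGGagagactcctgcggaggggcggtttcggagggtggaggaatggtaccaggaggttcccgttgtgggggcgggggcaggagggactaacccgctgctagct
MRE11: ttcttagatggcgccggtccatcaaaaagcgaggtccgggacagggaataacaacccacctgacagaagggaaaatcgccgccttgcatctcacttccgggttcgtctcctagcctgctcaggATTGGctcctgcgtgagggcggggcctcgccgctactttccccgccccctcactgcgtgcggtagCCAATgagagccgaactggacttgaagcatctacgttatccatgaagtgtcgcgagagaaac
CCAAT was present in 10 of the 14 windows, in 6 of 7 genes (ATM, CHEK1, CHEK2, MRE11, XRCC6 and LIG4), and in 32% of all 35116 windows. The E2F words TTTGGCGC, TTTCCCGC, TTTCGCGC and TTTGCCGC were in none of the 14 windows and in 2.79% of all. The cell-cycle homology words TTTGAA and TTCGAA were in 1 ATM window and in 14.3% of all. Word matches describe the letters only.

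The end-joining factors closed the set. XRCC5, the Ku80 subunit, was measured by 1 probe and read 479.5, 442 and 763 on ING2-6K etoposide arrays, 582, 814 and 355 on ING2-6K DMSO, 214, 227 and 105 on ING2-WT etoposide and 568, 527 and 792 on ING2-WT DMSO. The 3 ING2-WT etoposide arrays were lower than all 9 others. Array 3 was the lowest of them, and without the arrays numbered 3 the XRCC5 change in ING2-WT was -1.31 (SE 0.18, adjusted p = 0.00415). In ING2-6K the change was -0.02 on all arrays (SE 0.41, adjusted p = 0.992) and -0.58 without the arrays numbered 3 (SE 0.18, adjusted p = 0.0461), and the difference of changes was then 0.73 (SE 0.26, adjusted p = 0.0659). XRCC6, the Ku70 subunit and the partner of XRCC5, gave probes that disagreed. The brighter read 1957, 2080 and 2231 on ING2-6K etoposide arrays, 1770, 1757 and 1278 on ING2-6K DMSO, 1513, 1372 and 2325 on ING2-WT etoposide and 1901, 2069 and 2036 on ING2-WT DMSO. The other read 1400, 1525 and 1553 on ING2-6K etoposide arrays, 1652, 1546 and 1236 on ING2-6K DMSO, 1227, 1089 and 287 on ING2-WT etoposide and 1749, 1735 and 1784 on ING2-WT DMSO. They parted on ING2-WT etoposide array 3, the brightest value of one probe and the dimmest of the other, while both were lower on ING2-WT etoposide arrays 1 and 2 than on any ING2-WT DMSO array. The XRCC6 change in ING2-WT was, probe by probe, -0.24 by the brighter (SE 0.28, adjusted p = 0.693) and -1.27 by the other (SE 0.46, adjusted p = 0.165). LIG4, the ligase of the pathway, read 171.5, 159.7 and 146 on ING2-6K etoposide arrays, 233.5, 214 and 147 on ING2-6K DMSO, 224, 163.5 and 332 on ING2-WT etoposide and 164, 182 and 126 on ING2-WT DMSO. Its groups overlapped in every comparison. The LIG4 change in ING2-WT was, probe by probe, 0.56 by the brighter (SE 0.33, adjusted p = 0.393) and -0.85 by a dimmer one (SE 0.40, adjusted p = 0.277), which reached 64 on 3 arrays only.

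**Figure D3:**
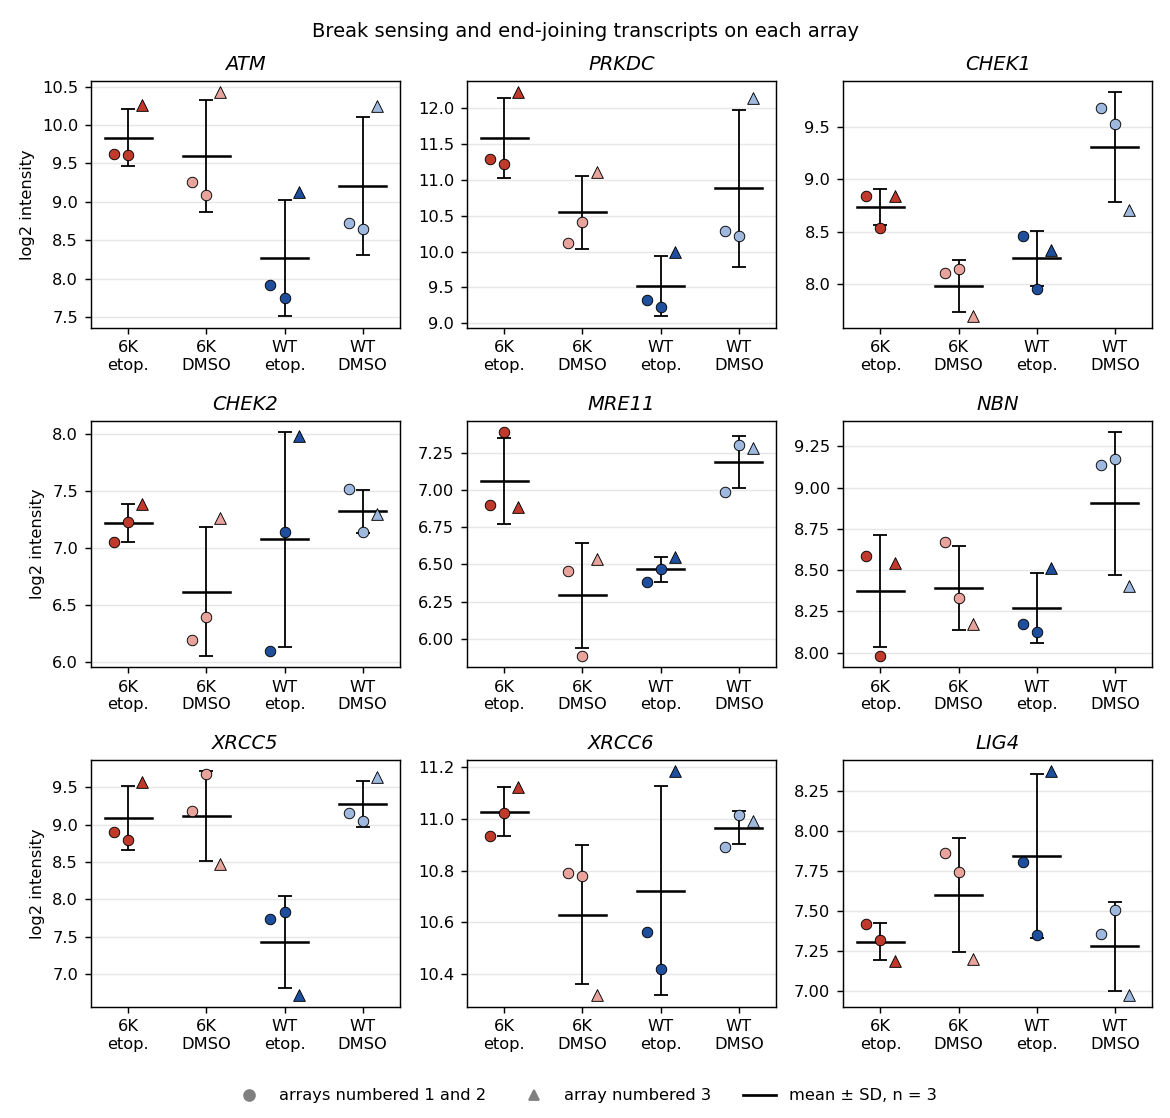
Log2 quantile-normalised intensity of the brightest probe of each gene tested on every array, in the 4 groups, with the group mean ± SD (n = 3). Circles are arrays 1 and 2 and triangles array 3, and each panel has its own axis that does not start at 0. CHEK1 and MRE11 separate the treatments in both lines on opposite sides, and XRCC5 is lower on the 3 ING2-WT etoposide arrays than on the other 9.

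The rest of the pathway was read in lists by role, as the count of genes called in the difference of changes (ING2-6K minus ING2-WT, limma) beside 3.85% of all genes called higher and 2.65% lower. The median over all genes was 0.01 and over the 9 genes above 1.19. Among sensors and the checkpoint clamp, 3 of 10 tested were higher and none lower, with a median of 1.52. RPA1, the large subunit that coats single-stranded DNA, differed by 2.32 (SE 0.33, adjusted p = 0.00124), TOPBP1, the activator of ATR, by 2.06 and RAD9A of the clamp by 2.96. Among mediators and ubiquitin ligases, 7 of 16 were higher, with a median of 1.56. BRCA1 differed by 5.53 (SE 0.64, adjusted p = 0.000270), its partner BARD1 by 4.54 and the fork protein TIMELESS by 3.12. Genes of alternative end joining, the route used when Ku and LIG4 are not, gave 4 of 8 higher with a median of 1.60, led by POLQ, its polymerase (5.70, SE 0.46, adjusted p = 2.03e-05), the flap nuclease FEN1 (4.28) and the scaffold XRCC1 (2.23). The accessory factors of classical end joining gave no call among 9, where 6.49% of all genes were called in either direction. At an unadjusted p under 0.05 there were 3, beside 22% of all genes, and the median was 0.17. PAXX, which steadies Ku on the end, had the smallest adjusted p there (1.56, SE 0.44, adjusted p = 0.0604), and APTX and WRN had values of -1.10 and 1.24. Factors that mature or reverse the kinases gave none among 7 (2 at an unadjusted p under 0.05), with a median of -0.33, where PPM1D, a phosphatase that p53 induces, had -1.67 (adjusted p = 0.0651), TELO2 1.63 and PPP6C -0.77. The lists were not tested against each other.

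Checkpoint effectors, which act on the cell-cycle engine, gave 7 of 9 higher with a median of 3.26, PKMYT1 (6.11), PLK1 (3.26) and CDC25B (2.93) among them. Proliferation markers gave 11 of 12 higher with a median of 6.02, including TOP2A (9.22), CCNB2 (7.65) and MCM2 (5.75), and p53 targets 6 of 13 lower with a median of -1.78, including CDKN1A (-3.73), TP53I3 (-3.86) and MDM2 (-3.67). The summed intensity of the 12 proliferation markers was 13280 to 16280 on ING2-6K etoposide arrays, 5195 to 7545 on ING2-6K DMSO, 7252 to 7864 on ING2-WT etoposide and 15640 to 24560 on ING2-WT DMSO. The sum of the 13 p53 targets was 30730 to 41490 on ING2-6K etoposide arrays, 41680 to 66050 on ING2-6K DMSO, 49720 to 67650 on ING2-WT etoposide and 17950 to 39590 on ING2-WT DMSO. Both sums separated the treatments in each line, and their part in the values of CHEK1, MRE11, PRKDC and XRCC5 was not tested. In bulk RNA, fewer dividing cells and less transcript per cell cannot be told apart. Without the arrays numbered 3 the counts were 6 higher and 2 lower of 10 sensors, 9 higher of 15 mediators, 7 higher and 1 lower of 8 alternative end-joining genes, 2 higher and 1 lower of 9 accessory factors, 1 higher (TELO2) and 1 lower (PPM1D) of 7 maturation factors and phosphatases, 7 higher of 9 effectors, 11 higher and 1 lower of 12 proliferation markers and 12 lower of 13 p53 targets, beside 18.4% of all genes higher and 19.8% lower.

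**Figure D4:**
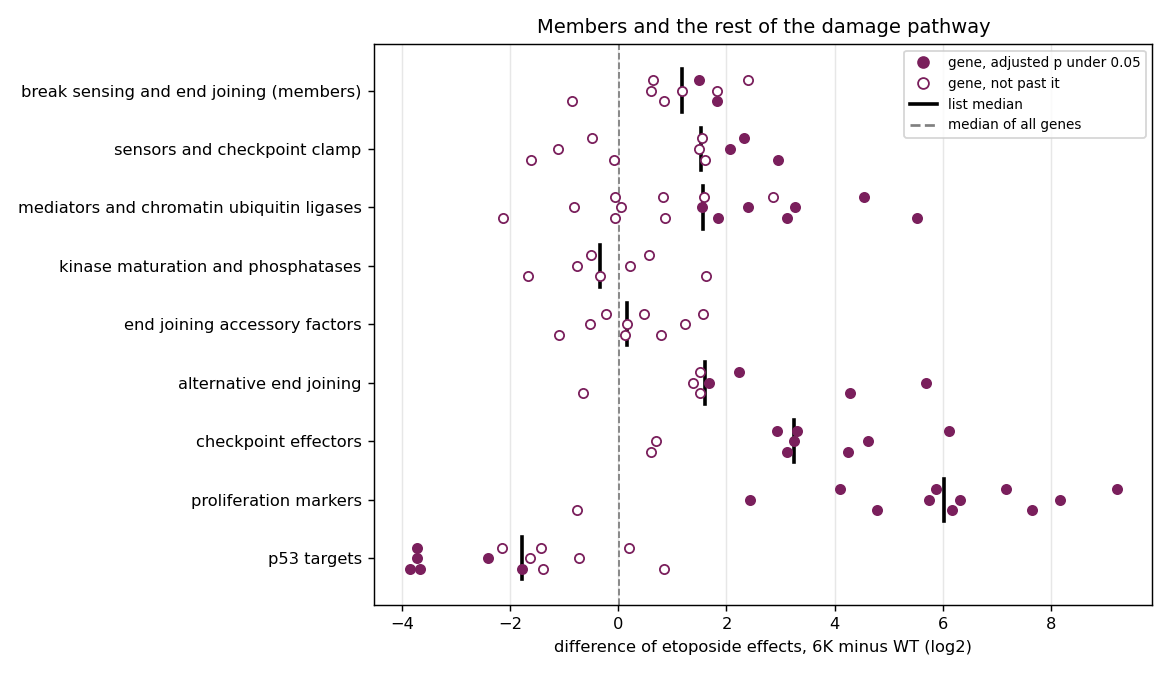
Difference of etoposide changes (log2, ING2-6K minus ING2-WT) for each gene tested in 9 lists, with filled points for an adjusted p under 0.05, the list median as a bar and the median of all genes as a dashed line. The break sensing and end-joining genes, marked as members, have a median of 1.19, against 6.02 for proliferation markers and -1.78 for p53 targets.

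CHEK1 had the smallest adjusted p of the 9 in the difference of changes, and the 5 genes most like it were sought among all genes tested by Pearson's r of log2 intensity over the 12 arrays, as a description of arrays that share their grouping. They were ANP32B (0.96), MAD2L1, a spindle checkpoint protein (0.96), the nucleoporin NUP54 (0.96) and the exosome subunits EXOSC8 (0.96) and EXOSC9 (0.96). Over the 8 arrays numbered 1 and 2, r lay between 0.95 for ANP32B and 0.97 for NUP54. The log2 change of MAD2L1 was 1.95 in ING2-6K and -2.43 in ING2-WT, where that of CHEK1 was 0.75 in ING2-6K and -1.06 in ING2-WT.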

How the data were processed

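The arrays measured transcripts in total RNA from the 12 samples, with biotin as the label. The authors deposited linear intensity values for each probe after background subtraction and a scaling whose method is not stated. The other deposited column used, of unit other, held each probe's gene symbol as text, and 24 further signal and detection columns matched no label and were not used. Values were quantile-normalised, floored at 16 and taken to log2, and probes reaching 64 on at least 3 arrays were kept. Group means were fitted with limma 3.58.1 (R 4.3.3) with empirical Bayes moderation, two-sided tests and Benjamini-Hochberg adjustment over 11443 genes. The number of arrays limits precision, with a median SE of 0.43 for a change and 0.61 for the difference. The script was tested on simulated data. Same-numbered arrays deviated together in ING2-WT (r = 0.244, 0.293 and 0.348) and in DMSO (0.491, 0.376 and 0.637), the rule by which the block was used there. Differently numbered arrays 1 and 2 reached 0.258 in ING2-WT and 0.511 in DMSO, while array 3 against another number was below 0. The check thus shows array 3 standing apart and does not show that arrays 1 and 2 were paired by number. By the same rule the block is only an alternative in ING2-6K (lowest -0.0386) or etoposide (lowest 0.0999). Named genes were all 10 genes, up to 3 per list with the smallest adjusted p in the difference, 4 label checks (CDKN1A, MDM2, TOP2A and ING2) and the 5 genes most like CHEK1. The genes, lists and tests were chosen with earlier results of these data known. Alternatives covered scaling, floor, filter, probe choice, block, array weights, moderation, threshold and each array left out.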

Additional observations from a re-analysis of the deposited data

Results flagged for a closer look

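Leaving out the genes most like CHEK1, 20 of the genes named here changed differently with etoposide on arrays labelled ING2-6K and ING2-WT. The test was limma's on the difference of log2 changes, with Benjamini-Hochberg adjustment over all genes. The same test called 743 of 11443 genes, other members of the lists among them, and the naming rule took at most 3 from each list. Among the break sensing and end-joining genes these were CHEK1 (1.82, adjusted p = 0.0303) and MRE11 (1.50, adjusted p = 0.0416). In the rest of the pathway, values were 2.32 for RPA1, 2.06 for TOPBP1 and 2.96 for RAD9A among sensors, 5.53 for BRCA1, 3.12 for TIMELESS and 4.54 for BARD1 among mediators, and 4.28 for FEN1, 5.70 for POLQ and 2.23 for XRCC1 in alternative end joining. Checkpoint effectors gave 6.11 for PKMYT1, 3.26 for PLK1 and 2.93 for CDC25B. Proliferation markers gave 9.22 for TOP2A, 7.65 for CCNB2 and 5.75 for MCM2, and p53 targets -3.73 for CDKN1A, -3.86 for TP53I3 and -3.67 for MDM2. CDKN1A fell with etoposide on arrays labelled ING2-6K, by 1.61 on the log2 scale (adjusted p = 0.0208), and rose by 2.11 on those labelled ING2-WT (adjusted p = 0.00279), so the labels of the ING2-6K arrays bear on all 20. Whether those labels hold was not tested.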

How the results depend on the processing

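The number of the 9 genes called was 1 in ING2-WT with etoposide. It was 2 with cyclic loess, with the mean of a gene's probes or at an adjusted p under 0.10, 0 at 0.01 or with only the groups compared, 4 with the replicate block, 7 with array weights, 6 without the arrays numbered 3 and 0 to 1 with single arrays left out (0 without ING2-WT DMSO array 1 or 2). In ING2-6K it was 0, and 4 with array weights or without the arrays numbered 3. For the difference of changes it was 2, against 1 with 64 required on all arrays (where MRE11 was not tested). It was also 1 in the probe-by-probe fit, counting only the brightest probe of each gene. The third and the dimmest PRKDC probes, not counted there, were called as well. The number was 4 with the replicate block or at 0.10, 8 with array weights, 0 at 0.01, 6 without the arrays numbered 3 and 0 to 2 with single arrays left out. Between lines in DMSO it was 0, against 1 with 75th percentile scaling, the deposited scaling, cyclic loess, a floor of 64, an offset of 16, 64 on all arrays, the replicate block, no moderation or 0.10, 4 with array weights, 3 without the arrays numbered 3 and 0 to 1 with single arrays left out. That 1 gene was CHEK1 without ING2-WT etoposide array 3 (adjusted p = 0.0350) or ING2-WT DMSO array 3 (0.00932). Between lines in etoposide it was 2, against 0 with no filter, no moderation or 0.01 and 1 with only the groups compared. It was 3 with the replicate block, 6 with array weights, 4 without the arrays numbered 3 and 0 to 2 with single arrays left out. Single omissions also gave calls for CHEK1 in ING2-WT without ING2-WT DMSO array 3 (0.0237) and ATM between lines in etoposide without ING2-WT etoposide array 3 (0.0414). With array weights, 30.6% of all genes were called in ING2-WT, 39.7% in ING2-6K, 40.2% in the difference, 28.8% between lines in DMSO and 43% in etoposide, and at an adjusted p under 0.10 8.11% in ING2-WT, 11% in the difference and 3.47% in DMSO. With the replicate block 10.6% were called in ING2-WT, 15.2% in the difference, 4.24% between lines in DMSO and 17.2% in etoposide. Without the arrays numbered 3 the share was 31.3% in ING2-WT, 38.4% in ING2-6K, 38.2% in the difference, 26.3% in DMSO and 42.4% in etoposide. The cause was not tested. Only-the-groups fits do not apply to the difference. Of all genes in ING2-WT, cyclic loess called 4.77%, probe means 4.89%, only-the-groups fits 1.14% and the fit 1.73% at 0.01. In the difference, 64 on all arrays called 6.96%, brightest probes in the probe-by-probe fit 5.9%, and the main fit 3.22% at 0.01. In DMSO the scalings, floor and offset called 2.47% to 2.88%, 64 on all arrays 1.7% and no moderation 2.54%. In etoposide, no filter called 2.21%, no moderation 5.31%, only-the-groups fits 2.92% and the fit 1.21% at 0.01.

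Of the single-gene values under all alternatives, 25 changed sign, none of them called. With the mean of a gene's probes, LIG4 was -0.145 in ING2-WT and 0.0076 between lines in etoposide. With 75th percentile, deposited and loess scaling, NBN in ING2-6K was 0.0762, 0.118 and 0.0744 and XRCC5 0.0595, 0.101 and 0.0578. Between lines in DMSO, XRCC5 was 0.21 with array weights and 0.33 without the arrays numbered 3, and PRKDC 0.0113 without them. With single arrays left out, CHEK2 ran from -0.72 to 0.24 in ING2-WT and from -0.34 to 0.62 between lines in etoposide. In ING2-6K, NBN ran from -0.13 to 0.17, ATM from -0.0064 to 0.67 and XRCC5 from -0.34 to 0.26. Between lines in DMSO, PRKDC ran from -0.67 to 0.29, ATM from -0.0333 to 0.91 and XRCC5 from -0.44 to 0.15, and between lines in etoposide NBN from -0.0079 to 0.30.

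Scaling by the 75th percentile or as deposited moved the median of all genes to 0.15 and 0.13 in the difference and to 0.12 and 0.14 between lines in etoposide, where 436 genes were then called higher and 206 lower, or 466 and 219, against 359 and 271. Array brightness near background limits ATR and the dim probes of CHEK2, NBN, MRE11 and LIG4.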
